A study of Mus musculus with 8 samples.

Results

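Anti-GDF8 antibody was compared with placebo antibody in the knee articular cartilage of mouse limbs with a transected anterior cruciate ligament (ACLT). The comparison takes 4 of the 8 cartilage libraries, the 2 pools of each antibody group from ACLT limbs, named A and B, and reads every gene in them, 20539 in all, of which 17401 passed a minimum mean of 10 reads. Placebo ACLT mice received a control antibody (PLA Ab) and anti-GDF8 ACLT mice an antibody against GDF8 (GDF8 Ab), each at 10 mg/kg, and cartilage was collected on day 7 after surgery. The study describes mice of 4 to 5 months, with ACLT in 1 hind limb and the other limb as the control, and RNA pooled from 4 limbs to make a library. The remaining 4 libraries come from the control limbs, taken from the opposite side of these mice, and for some genes and lists their values are set beside the ACLT values below. The sources differ on the animals, since the design text of the series speaks of 4 mice for each treatment and the methods of the study of 8 for each group. They do not say which mice went into which pool, so whether the 2 pools of a group hold separate animals is not settled, and p-values and standard errors measure only the spread between pools. Every label has cartilage as the tissue, although the word quadricep stands in the treatment field of the control limbs, and no label gives a strain.

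GDF8, or myostatin, is a secreted member of the TGF-β family that binds activin type II receptors and signals through SMAD2 and SMAD3. It is best known as a brake on muscle size, and it acts on fibroblasts and on bone-forming and bone-resorbing cells as well. In the injured joint, matrix genes, matrix proteases and inflammatory mediators are the transcripts usually followed, since chondrocytes, synovial and capsular fibroblasts, macrophages and subchondral bone cells all take part in the response.

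The starts of transcription of 3 genes described below are shown, Vasn and Mmp11 from the lower genes and Trim63 from the higher ones, because SMAD proteins bind the SMAD box and muscle regulators bind the E-box. Where RefSeq lists several starts for a gene, the first was taken. Each line gives 250 bases before and 50 bases from the start, 5′ to 3′ on the coding strand, from RefSeq on GRCm38.p6. Vasn, a membrane protein that binds TGF-β, lies on the plus strand at chr16:4639695-4639994. Mmp11, a matrix metalloproteinase of stromal cells, lies on the minus strand at chr10:75932453-75932752. Trim63, a ubiquitin ligase of muscle fibers, lies on the plus strand at chr4:134314870-134315169. Capitals mark the SMAD box CAGAC on either strand in the first 2 sequences and the E-box CAGCTG in the third.
Vasn: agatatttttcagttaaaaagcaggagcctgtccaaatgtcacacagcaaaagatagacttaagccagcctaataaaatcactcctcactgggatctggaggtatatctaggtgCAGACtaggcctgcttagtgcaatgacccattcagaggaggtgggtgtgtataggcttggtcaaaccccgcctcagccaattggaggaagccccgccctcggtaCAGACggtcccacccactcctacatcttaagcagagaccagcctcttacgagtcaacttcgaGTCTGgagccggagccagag
Mmp11: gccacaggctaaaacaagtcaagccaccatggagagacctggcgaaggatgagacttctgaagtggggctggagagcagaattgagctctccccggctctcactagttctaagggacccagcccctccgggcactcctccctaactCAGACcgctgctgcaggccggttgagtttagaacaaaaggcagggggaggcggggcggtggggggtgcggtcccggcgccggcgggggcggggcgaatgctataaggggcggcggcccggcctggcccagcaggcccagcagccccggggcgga
Trim63: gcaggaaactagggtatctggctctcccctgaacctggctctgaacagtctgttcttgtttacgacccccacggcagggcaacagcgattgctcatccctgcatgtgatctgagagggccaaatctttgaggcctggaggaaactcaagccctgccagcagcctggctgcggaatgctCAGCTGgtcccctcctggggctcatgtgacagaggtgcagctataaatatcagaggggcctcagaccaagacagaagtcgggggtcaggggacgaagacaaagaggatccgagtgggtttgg
The Vasn sequence holds 3 SMAD boxes, the first base of which lies 136 and 32 bases before the start and at base 31 from it. The Mmp11 sequence holds 1, and the E-box of Trim63 begins 72 bases before the start. The Trim63 sequence also holds 2 SMAD boxes, which are not in capitals. The SMAD box is common at this length, being present in 48.5% of the 15340 RefSeq promoters of tested genes. Promoters were matched for 316 of the 469 genes that were lower, and 166 of the 244 that were higher, by at least 2-fold with no overlap between the groups and 5 CPM or more. The SMAD box was in 54.1% of the 403 promoters of the lower genes and in 55.3% of the 217 promoters of the higher genes. The E-box was in 16% of all promoters, 18.6% of those of the lower genes and 30.4% of those of the higher genes, and a MEF2 site in 2.01%, 2.48% and 12.4%. Of 30 skeletal muscle fiber genes, 26 were higher by at least 2-fold without overlap. Only 48 of the 244 higher genes had both pools of each group within 2-fold. The part of muscle genes in these motif shares was not tested. AP-1 (TGANTCA) was in 5.73%, 9.43% and 6.45%, TEAD (GGAATG) in 12.4%, 16.9% and 18%, and RUNX (TGTGGT) in 13.5%, 11.7% and 17.5%. Both strands were searched, overlaps between motifs were allowed, several promoters can belong to 1 gene, and a match is a description of the letters.

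Most genes were lower, and fewer higher, in the anti-GDF8 ACLT pools, but no gene passed the test. Values are CPM (reads of a gene as a share of all reads of its library, times 1000000), and differences are on the log2 scale of the value at the median depth plus 1 read, anti-GDF8 minus placebo. Of 17401 tested genes, 61.2% were below 0 and 38.8% above it, and 0 passed an adjusted p of 0.05 (0%, limma with Benjamini-Hochberg adjustment), the lowest value reached being 0.120. Without adjustment, 2035 genes were lower (11.7%) and 975 higher (5.6%) at a p under 0.05. Both anti-GDF8 pools lay below both placebo pools in 6201 genes (35.6%) and above them in 2830 (16.3%). These shares are the background for the counts without overlap given for gene lists in ACLT limbs below. With a difference of at least 2-fold as well, 1073 were lower (6.17%) and 457 higher (2.63%). With 2 pools against 2, an exact permutation test of a single gene cannot give a p under 0.333. Simulated libraries were made with the depths and mean levels of these data, the same relative spread for every gene and no tissue differences between pools. In them, 13, 45, 50 and 50 of 50 genes changed 2-, 4-, 8- and 16-fold were called over 17401 genes. That setting differs from the real pools, so these counts do not show which changes could be called here. A trimmed mean of log2 ratios, used to rescale the libraries, moved the median of all genes from -0.11 to 0.04, and the counts at an unadjusted p under 0.05 to 1327 lower and 1910 higher. Without anti-GDF8 ACLT pool A, 462 genes passed the adjusted p, 115 of them lower and 347 higher, and without placebo ACLT pool B 3 genes passed, all lower. Without placebo ACLT pool A, 1031 genes were lower and 418 higher at an unadjusted p under 0.05. Without placebo ACLT pool B, the 2-fold rule gave 1631 lower and 890 higher genes, and without anti-GDF8 ACLT pool A it gave 1457 and 887.

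**Figure D1:**
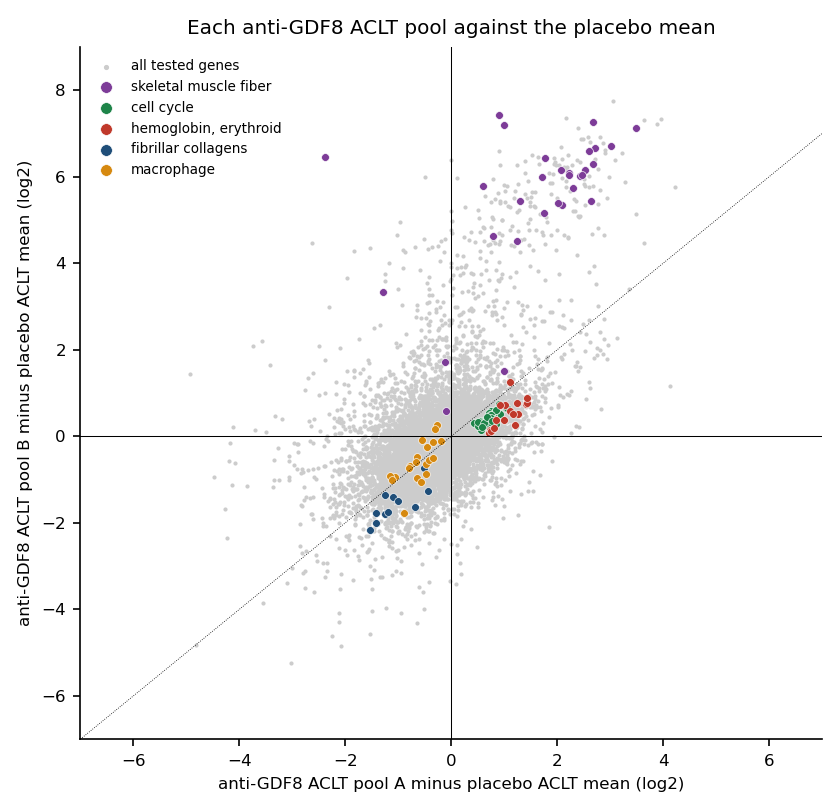
Each point is a tested gene, with its log2 value in anti-GDF8 ACLT pool A (horizontal axis) and pool B (vertical axis) minus the mean of both placebo ACLT pools, and colors mark 5 gene lists. The fibrillar collagens lie below 0 in both pools, the cell cycle genes above 0 in both, and most skeletal muscle fiber genes lie several log2 units higher in pool B than in pool A.

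Judged by the CPM worth of 1 read among low values, libraries held 19.9 to 27.6 M reads in the ACLT pools and 16.4 to 28.1 M in the control pools. RNA of tissues beside cartilage was present in all of them. Skeletal muscle fiber genes made up 0.0708% and 0.0387% of the placebo ACLT pools, 0.266% and 4.09% of the anti-GDF8 ACLT pools, and 2.07% to 8.59% of the control pools. Hemoglobin and erythroid genes took 7.16% and 8.83% of the placebo ACLT pools and 13.5% and 8.78% of the anti-GDF8 ACLT pools, and neutrophil genes 2.84% to 4.19%. Cartilage matrix and chondrocyte genes took 0.922% and 0.936% against 0.552% and 0.432%, and under 1% in every library, with Acan and Col2a1 detected in all 8. The part of these other tissues in the differences that follow was not tested. In pooled tissue, fewer cells of a type and less RNA per cell cannot be told apart.

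**Figure D2:**
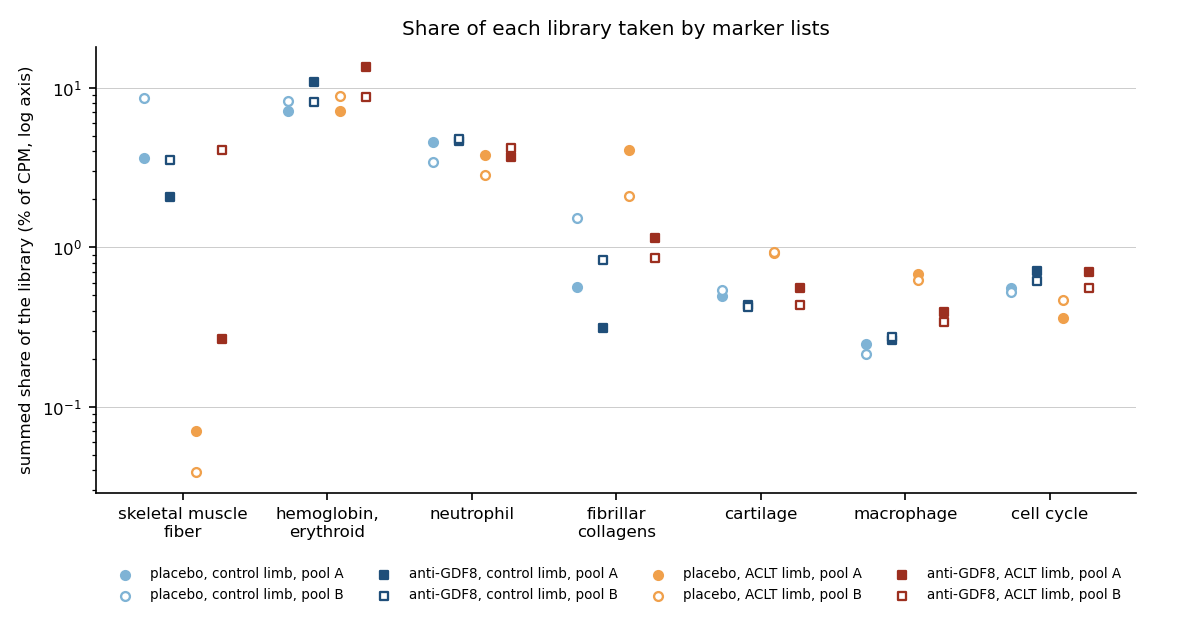
Summed share of each library (percent of CPM, log axis) taken by the genes of 7 marker lists, with circles for placebo, squares for anti-GDF8, filled symbols for pool A and open symbols for pool B. Anti-GDF8 ACLT pool B stands at 4.09% for muscle fiber genes, within the range of the control pools, while the other 3 ACLT pools lie at or below 0.266%.

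Collagen genes were lower in both anti-GDF8 ACLT pools. All 11 tested fibrillar collagen chains lay below both placebo pools, with a median log2 difference of -1.30, and so did 15 of 17 other chains, with a median of -1.19, beside -0.11 over all genes. In control limbs the medians were also below 0, at -0.76 for the fibrillar chains and -0.43 for the other chains, beside 0.09 over all genes. The largest of these transcripts in level was Col1a1, the main chain of bone, tendon and fibrous tissue, at 17912 and 6874 CPM in placebo ACLT pools A and B and 4119 and 2744 CPM in anti-GDF8 ACLT pools A and B. Col3a1, the chain of pliable and repairing connective tissue, stood at 5932 and 6209 CPM against 2830.4 and 2298 CPM. The placebo pools were far apart for Col1a1 and close for Col3a1, and in both genes the groups did not overlap. The log2 difference was -1.72 (SE 0.70, adjusted p = 0.256 with limma) for Col1a1 and -1.25 (SE 0.64, adjusted p = 0.356) for Col3a1. In control limbs it was -0.86 for Col1a1 and -1.02 for Col3a1, and there the groups overlapped in both genes. Col5a3, of the type V family that starts fibrils, was at 244 and 301 CPM against 113 and 106 CPM, a difference of -1.30 (SE 0.21). Col22a1, a chain found at tissue junctions, had the second smallest p of the lower genes, with 347 and 319.5 CPM against 131 and 111 CPM and a difference of -1.47 (SE 0.18, adjusted p = 0.120). Chains of type IV and type VI collagen followed the same direction. Col4a1, of basement membranes, stood at 284 and 339.6 CPM against 152 and 110.1 CPM, and Col6a1, of the matrix around cells, at 939 and 884 CPM against 445 and 352 CPM. Their differences were -1.26 (SE 0.19) and -1.20 (SE 0.26).

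The machinery that builds and ties collagen was lower as well. Of the 23 hydroxylases, chaperones and processing enzymes tested, 23 were below both placebo pools, with a median of -0.98, and 18 had an unadjusted p under 0.05. P3h4, which partners a prolyl hydroxylase, stood at 50.5 and 43 CPM against 21.6 and 21.8 CPM (difference -1.10, SE 0.18), and Pcolce, which speeds the trimming of procollagen, at 367 and 319 CPM against 184 and 144 CPM (-1.07, SE 0.19). In both, the anti-GDF8 pools were close together and well clear of the placebo pools. All 5 lysyl oxidases, which cross-link collagen and elastin, were lower, with a median of -0.86. Lox was at 168 and 159.7 CPM against 80.7 and 74.8 CPM, a difference of -1.07 (SE 0.20, adjusted p = 0.120). Elastin (Eln) was at 53.3 and 53.6 CPM against 18.8 and 22.4 CPM, a difference of -1.38 (SE 0.17), and 15 of 17 elastic fiber and microfibril genes did not overlap and were lower. Fbn2, a fibrillin of the growing microfibril, had one of the larger differences, -2.15 (SE 0.59), at 11.5 and 11.6 CPM against 2.86 and 2.31 CPM. The exception with a high level was Emilin2, at 181 and 202 CPM against 214 and 193 CPM, where the groups overlapped.

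Laminins and other basement membrane proteins gave 11 of 16 genes below both placebo pools, with a median of -0.90. Lamb1, a laminin chain, was at 58.4 and 72 CPM against 27 and 18.7 CPM, a difference of -1.53 (SE 0.31). The small leucine-rich proteoglycans, which bind collagen fibrils and growth factors, gave 9 of 11 with a median of -1.02, among them Bgn (biglycan) at 851 and 665 CPM against 369 and 297 CPM (-1.19, SE 0.21). Of 17 matricellular genes, whose proteins signal from the matrix, 15 were lower without overlap. Postn, periostin of repairing connective tissue, was at 368 and 396 CPM against 134 and 154 CPM, and Spp1, osteopontin of bone cells and macrophages, at 3299.7 and 2557 CPM against 1557 and 854 CPM. The difference was -1.41 (SE 0.37) for Postn and -1.33 (SE 0.29) for Spp1, and Spp1 was lower in pool B than in pool A. Fn1, fibronectin, was at 5323 and 6034 CPM against 2787 and 3030.2 CPM (-0.96, SE 0.32).

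**Figure D3:**
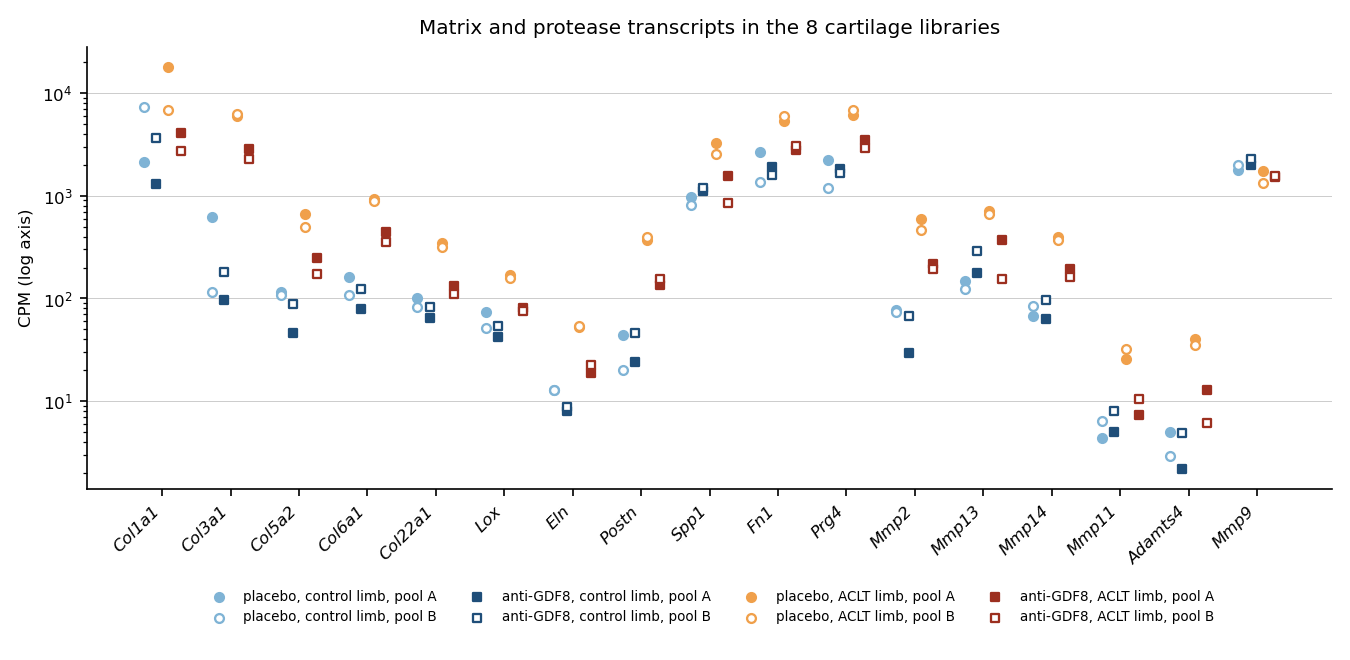
CPM on a log axis of 17 matrix and protease genes in all 8 libraries, with circles for placebo, squares for anti-GDF8, filled symbols for pool A and open symbols for pool B. For each gene but Mmp9 both anti-GDF8 ACLT pools lie below both placebo ACLT pools, and Mmp9 lies at 1742 and 1319 CPM with placebo and at 1529.8 and 1557 CPM with anti-GDF8 after ACLT.

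Matrix metalloproteinases of connective tissue cells were lower in both anti-GDF8 pools, and those of leukocytes were not lower. Of 10 metalloproteinases of connective tissue cells, 9 were below both placebo pools, with a median of -1.33, and of 4 leukocyte metalloproteinases 0 were below and 2 above them (Mmp8 and Mmp25), with a median of 0.12 (0.27 without placebo ACLT pool A and -0.041 without pool B). Of all tested genes 35.6% were below and 16.3% above, and 4 genes are too few to set against those shares. Mmp11 stood at 25.5 and 32.5 CPM against 7.38 and 10.5 CPM, a difference of -1.70 (SE 0.32, adjusted p = 0.120). Mmp14, a membrane collagenase that activates other proteases, stood at 400.2 and 371 CPM against 193 and 163 CPM (-1.12, SE 0.22). Mmp13, the collagenase of hypertrophic chondrocytes and bone cells, stood at 708 and 664 CPM against 373 and 154 CPM (-1.52, SE 0.38). Pool B of anti-GDF8 was the lowest for Mmp13, and its pool A lay about midway between that and the placebo pools. Mmp2, a gelatinase of fibroblasts, was at 589.7 and 467 CPM against 217 and 196 CPM (-1.35, SE 0.32). The neutrophil collagenase Mmp8 was at 689 and 589 CPM against 751 and 719 CPM, a difference of 0.21 (SE 0.20, adjusted p = 0.635). Of the aggrecan-cutting proteases, Adamts4 was at 40.1 and 35 CPM against 12.8 and 6.08 CPM, a difference of -2.08 (SE 0.47, adjusted p = 0.123), and 14 of 18 ADAMTS and ADAM genes were lower without overlap. Adamts12, which cuts COMP, was at 13.5 and 14 CPM against 6.29 and 7.38 CPM (-1.0, SE 0.45). Of 6 metalloproteinase inhibitors 3 were lower and 0 higher without overlap. Their median was -0.33 (-0.028 without placebo ACLT pool A and -0.54 without pool B). Timp2 was at 1085 and 1027 CPM against 539.9 and 626 CPM (-0.86, SE 0.20) and Timp1 at 108 and 101 CPM against 63.3 and 39.1 CPM (-1.07, SE 0.33). Timp3 differed by -0.09 (SE 0.23), and Timp4 was higher, by 0.63. Among cathepsins and lysosomal proteases 12 of 13 were lower, with a median of -0.48.

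Spon2, Ptn and Cplx2 had some of the larger differences outside these families, among genes with at least 5 CPM and pools within 2-fold of each other. Spon2, a secreted matrix protein that also binds bacteria, was at 46.7 and 42.7 CPM against 9.91 and 8.64 CPM, a difference of -2.27 (SE 0.38, adjusted p = 0.120). Ptn, the growth factor pleiotrophin, was at 46.6 and 41.7 CPM against 9.77 and 12.5 CPM, a difference of -1.99 (SE 0.47). Cplx2, a complexin that acts in secretion, was at 22.2 and 11.6 CPM against 4.13 and 3.14 CPM (-2.14, SE 0.44). All 3 were at least 3 CPM in each ACLT pool and had no overlap between groups. Among the smallest p-values were Mrc2, a collagen uptake receptor of fibroblasts, at 101 and 107 CPM against 49.9 and 49.2 CPM (-1.07, SE 0.14), and the serine protease Prss23 at 94 and 114 CPM against 46.7 and 48.2 CPM (-1.13, SE 0.16). Vasn, whose promoter is shown above, was at 56.5 and 52.8 CPM against 25.2 and 23.2 CPM (-1.17, SE 0.17). Vasn was 24.9 and 22.5 CPM in the placebo control pools and 16.2 and 20.5 CPM in the anti-GDF8 control pools, where the groups did not overlap either.

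Targets of TGF-β signaling were lower, and genes of GDF8 itself and its binding partners differed less in size. Of 18 genes listed as SMAD2/3 targets, 16 lay below both placebo pools, with a median of -0.76 (-0.61 in pool A and -0.88 in pool B). Cdkn1a, a cell cycle inhibitor, was at 102 and 89.1 CPM against 48 and 45.2 CPM, a difference of -1.03 (SE 0.16, adjusted p = 0.120). Pmepa1, a feedback inhibitor of TGF-β signaling, was at 35.4 and 33.4 CPM against 22.2 and 16.4 CPM (-0.85, SE 0.25). Several of these targets are matrix genes or shared with the fibroblast lists, so the list is not separate from the collagens. The TGF-β ligands, receptors and latency proteins had a median of -0.42, with 15 of 21 lower without overlap, led by the latency protein Ltbp3 at 199 and 216 CPM against 106 and 111 CPM (-0.93, SE 0.16). Of the 14 tested genes of GDF8 and activin ligands, receptors and antagonists, 5 were lower and 1 higher without overlap, beside 35.6% and 16.3% of all tested genes, so the count is near the background. Their median was -0.26, and -0.15 without anti-GDF8 ACLT pool A. Mstn, the gene of GDF8, was at 1.3 and 1.48 CPM against 0.470 and 8.03 CPM, and the high pool was the one with the most muscle fiber RNA. Fst, follistatin, which binds GDF8 and activins, was at 11.8 and 11.5 CPM against 9.55 and 6.63 CPM (-0.55, SE 0.25). Its relative Fstl1 was at 452 and 568 CPM against 237 and 291 CPM (-0.95, SE 0.28).

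Other growth factor systems of connective tissue showed the same direction. The BMP list had 17 of 24 genes lower without overlap (median -0.61), with Id3, a transcriptional target, at 239.9 and 160.4 CPM against 96 and 81.9 CPM (-1.14, SE 0.21). The Wnt list had 14 of 24 (median -0.57), with the secreted protein Sfrp2 at 23.1 and 25 CPM against 5.6 and 11.2 CPM (-1.59, SE 0.44). Insulin-like growth factors and binding proteins had 9 of 10 (median -0.80). Igf1 was at 117 and 125 CPM against 64.2 and 70.7 CPM, a difference of -0.84 (SE 0.24, adjusted p = 0.157), and Igfbp7, which binds it weakly, at 437 and 382 CPM against 230.1 and 187 CPM (-0.97, SE 0.25). Of 18 angiogenic and platelet-derived growth factor genes 15 were lower, among them Pdgfd at 15.7 and 14.7 CPM against 6.33 and 7.23 CPM (-1.16, SE 0.23). In control limbs the medians of these 4 lists ran from -0.21 to 0.06.

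Genes of several joint cell types were lower together. Activated fibroblast genes had 14 of 15 below both placebo pools (median -1.13), and Fap, a surface protease of such cells, stood at 160.0 and 123 CPM against 70.3 and 57.1 CPM (-1.15, SE 0.26). Smooth muscle and pericyte genes had 8 of 13 lower and 2 higher without overlap, beside 35.6% and 16.3% of all tested genes. Rgs5, a pericyte regulator of G protein signals, was at 141 and 153 CPM against 54.1 and 68.4 CPM (-1.27, SE 0.22), whereas Des, desmin, which muscle fibers also make, was at 16.9 and 15.1 CPM against 47.9 and 630.3 CPM. Endothelial genes had 15 of 17 lower without overlap (median -0.51), with Emcn, endomucin of small vessels, at 23.9 and 31.9 CPM against 16.5 and 11.6 CPM (-0.99, SE 0.25) and Vwf at 141 and 124 CPM against 125 and 184 CPM, where the groups overlapped. Cartilage genes had 19 of 23 lower and 1 higher without overlap, with a median of -0.58 in pool A and -1.42 in pool B. Prg4, lubricin of the joint surface, was at 6123 and 6881 CPM against 3491 and 2949.6 CPM, a difference of -1.02 (SE 0.31). Acan, aggrecan, was at 70.5 and 70.0 CPM against 52.9 and 28.5 CPM (-0.86, SE 0.28), and Col2a1, the main collagen of hyaline cartilage, at 346 and 229 CPM against 196 and 168 CPM (-0.63, SE 0.74). In the placebo control pools Col2a1 was 283 and 1654 CPM, so pools of 1 group can differ more in it than the ACLT groups did. Sox6, a chondrocyte transcription factor that erythroid precursors also use, was higher, at 32.1 and 53.9 CPM against 91 and 67.2 CPM (0.91, SE 0.26).

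Genes of bone-forming cells were mostly lower in ACLT limbs. Those of bone-resorbing cells were lower by gene count, with a summed level that overlapped through Car2. Osteoblast and osteocyte genes had 9 of 15 lower without overlap (median -0.91). Bglap, osteocalcin, was at 660.3 and 227 CPM against 109 and 93.9 CPM, with one placebo pool far above the other (-1.93, SE 0.55), and its near-identical neighbours Bglap2 and Bglap3 can share reads with it. Leaving out placebo ACLT pool A, which was the high one, moved the median of the osteoblast list to -0.36, and leaving out pool B moved it to -1.47. Osteoclast genes had 9 of 16 lower and 1 higher without overlap, beside 35.6% and 16.3% of all tested genes. Their median was -0.35 in ACLT limbs (-0.23 without anti-GDF8 pool A) and 0.38 in control limbs. Their summed share of CPM was 0.387% and 0.348% in the placebo ACLT pools and 0.408% and 0.317% in the anti-GDF8 ACLT pools, where the groups overlapped. The higher member was Car2, a carbonic anhydrase that red cells also make, at 841 and 1281 CPM against 2356 and 1419 CPM (0.82, SE 0.32, adjusted p = 0.239). It had the highest mean level of the list, and the overlap of the sums rests on it. Ctsk, the collagen-degrading cathepsin of osteoclasts, was at 1363 and 874 CPM against 533 and 476 CPM in ACLT limbs (-1.11, SE 0.26) and 317 and 294 CPM against 314 and 498 CPM in control limbs (0.37). Atp6v0d2, a proton pump subunit of osteoclasts, was at 78.6 and 72 CPM against 45.4 and 45.8 CPM in ACLT limbs and 31 and 35.4 CPM against 44 and 56.9 CPM in control limbs. The 2 limbs ran in opposite directions in this gene, and the interaction passed for 0 genes (0%, smallest adjusted p = 0.432), with 1335 genes (7.67%) below and 464 (2.67%) above 0 at an unadjusted p under 0.05, and for 305 without anti-GDF8 ACLT pool A.

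Macrophage genes were lower in both pools, complement genes were mostly lower, and neutrophil genes were not lower. Of 20 macrophage genes, 16 were below both placebo pools, with a median of -0.59 (-0.56 in pool A and -0.61 in pool B) against 0.05 in control limbs. Trem2, a lipid receptor of macrophages, was at 59.9 and 71.6 CPM against 29.9 and 32.6 CPM, a difference of -1.07 (SE 0.20, adjusted p = 0.120). Cx3cr1, a chemokine receptor of resident lining macrophages, was at 74 and 64.9 CPM against 44.5 and 35.6 CPM (-0.80, SE 0.17). The receptor Csf1r, present on all of these cells, was at 302 and 323 CPM against 275 and 290.1 CPM (-0.15, SE 0.13), the groups did not overlap, and its difference was 0.0035 after trimmed mean rescaling. Complement components and regulators had 11 of 17 lower and 3 higher without overlap (median -0.62), beside 35.6% and 16.3% of all tested genes. C1qb, a subunit of the first complement component, was at 327 and 397 CPM against 207 and 217 CPM (-0.76, SE 0.16), and Cfb, complement factor B, at 97.8 and 107 CPM against 47 and 55.3 CPM (-1.0, SE 0.17). C3, the central component, went the other way, at 275 and 273 CPM against 331 and 391 CPM (0.39, SE 0.15). Neutrophil granule and surface genes had 0 of 20 lower and 11 higher without overlap, with a median of 0.26 (0.49 without placebo ACLT pool A and 0.09 without pool B), and the myeloid precursor enzyme Mpo was at 1699.9 and 2002 CPM against 2887 and 3827 CPM (0.85, SE 0.25). Inflammatory cytokines and mediators had 5 of 21 lower and 3 higher without overlap, so neither count exceeded the 35.6% and 16.3% of all tested genes. Their median was -0.15, near that of all genes, with -0.39 without anti-GDF8 ACLT pool A and -0.0064 without pool B. Csf1, the macrophage growth factor, had the smallest p among them, at 92.4 and 85.9 CPM against 68.8 and 56.1 CPM (-0.52, SE 0.15).

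**Figure D4:**
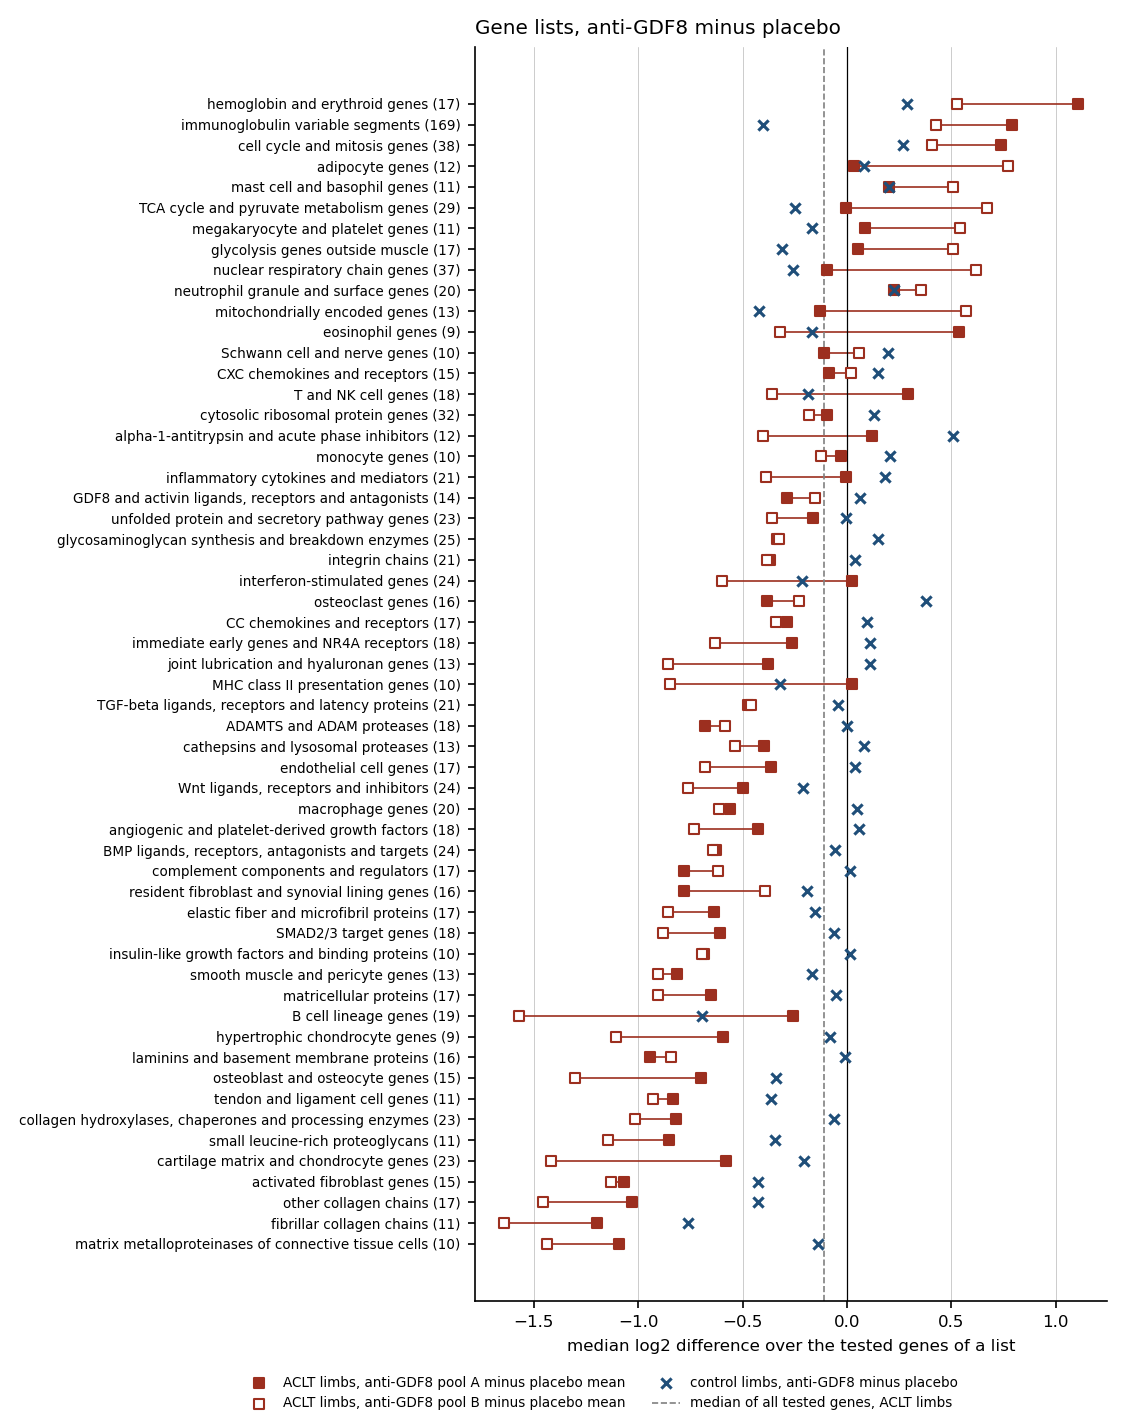
Median log2 difference over the tested genes of each list (number in brackets), with filled and open squares for anti-GDF8 ACLT pools A and B minus the placebo ACLT mean, crosses for anti-GDF8 minus placebo in control limbs, and a dashed line at the median of all tested genes in ACLT limbs. Connective tissue lists lie left of the dashed line in both pools, while the MHC class II, interferon and respiratory chain lists lie near 0 in pool A and away from it in pool B.

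Cell division and red cell precursor genes were higher. All 38 tested cell cycle genes were higher and 36 of them did not overlap, with a median of 0.56 (0.74 in pool A, 0.41 in pool B) against 0.27 in control limbs. Mcm5, part of the replication helicase, was at 117 and 146 CPM against 237 and 199 CPM, a difference of 0.73 (SE 0.16, adjusted p = 0.121). Mki67, a general marker of dividing cells, was at 227 and 259 CPM against 437 and 296 CPM (0.57, SE 0.21). Erythroid genes had 16 of 17 higher without overlap, with a median of 0.84. Without placebo ACLT pool A the medians were 0.37 for the cell cycle list and 0.54 for the erythroid list. Klf1, a transcription factor of red cell precursors, was at 72.7 and 108 CPM against 210.3 and 151 CPM (1.01, SE 0.27), and Gfi1b, which acts in red cell and platelet precursors, at 37 and 52.3 CPM against 110.5 and 95.9 CPM (1.23, SE 0.23). Both were higher in pool A than in pool B, and pool A was the pool with 13.5% erythroid RNA. The cell cycle list had the same order of pools. The placebo control pools held 200.1 and 199 CPM of Mcm5 and 136 and 166 CPM of Klf1, above both placebo ACLT pools in each gene.

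Skeletal muscle fiber genes were higher, chiefly through pool B. Of 30 genes 26 lay above both placebo pools, with a median of 2.05 in pool A and 6.03 in pool B, against -0.82 in control limbs. Myh4, the fast myosin, was at 59.4 and 15.4 CPM against 340.2 and 4213 CPM, a difference of 5.31 (SE 1.06, adjusted p = 0.120). In control limbs it was 4921 and 12262 CPM with placebo and 2302 and 3562 CPM with anti-GDF8. The placebo ACLT pools were the lowest of all 8 libraries for it, and anti-GDF8 ACLT pool B was among the control pools. Trim63, the ligase of muscle atrophy whose promoter is shown above, had the smallest p of the higher genes, at 1.89 and 1.71 CPM against 34.6 and 100.1 CPM (4.99, SE 0.60, adjusted p = 0.120). In control limbs Trim63 ran the other way, at 149 and 445 CPM with placebo and 50.1 and 103 CPM with anti-GDF8 (-1.84). Fbxo32, another ubiquitin ligase gene of muscle atrophy, was at 18 and 16.4 CPM against 24.7 and 87.4 CPM (1.43, SE 0.69), and in control limbs at 113 and 440.2 CPM against 52.9 and 104 CPM. Energy genes were higher in pool B and not in pool A, the respiratory chain median being -0.09 in pool A and 0.62 in pool B, and that of the 13 mitochondrially encoded genes -0.13 and 0.57. Both medians were below 0 with the muscle fiber covariate. Over 23 alternative settings, among them the mean of the muscle fiber genes as a covariate, the median ran from -1.64 to -1.03 for the fibrillar collagens, from -0.72 to -0.40 for the macrophage genes and from 0.37 to 0.90 for the cell cycle genes.

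Genes of developing B cells were lower in both limbs. Vpreb1, part of the surrogate light chain that marks precursor B cells, had the smallest p of all genes, with 13.3 and 10.7 CPM in the placebo ACLT pools against 1.45 and 1.41 CPM in the anti-GDF8 pools, a difference of -3.02 (SE 0.35, adjusted p = 0.120). In control limbs it was 7.85 and 4.95 CPM with placebo and 0.851 and 0.959 CPM with anti-GDF8, a difference of -2.72. All 4 anti-GDF8 libraries were below all 4 placebo libraries. The same order held for Igll1, its partner in that light chain, at 13.6 and 9.8 CPM against 3.83 and 2.31 CPM (-1.94, SE 0.46) in ACLT limbs and 14.8 and 7.05 CPM against 0.912 and 1.62 CPM (-3.02) in control limbs. Vpreb3 gave 17.2 and 12.5 CPM against 5.06 and 1.81 CPM (-2.26, SE 0.53) and 18.5 and 8.22 CPM against 2.74 and 1.92 CPM (-2.40). Rag1, which starts antigen receptor recombination, was at 1.89 and 1.01 CPM against 0.0723 and 0.0502 CPM, the latter being 2 reads and 1 read. Ms4a1, the CD20 gene of later B cells, was at 31.6 and 37.5 CPM against 30.8 and 11.5 CPM, where anti-GDF8 ACLT pool A was close to the lower placebo pool and pool B far below. The whole B cell list had 13 of 19 genes lower without overlap and 1 higher, its median being -0.26 in pool A, -1.57 in pool B and -0.69 in control limbs. With the mean of the muscle fiber genes as a covariate, which is high in pool B, the median in ACLT limbs was 0.14. Control limbs gave 0 genes past the adjusted p (0%, smallest 0.484), with 275 lower (1.58%) and 516 higher (2.97%) at an unadjusted p under 0.05. Immunoglobulin variable segments, grouped after their values were seen, ran the other way in ACLT limbs, with 79 of 169 above both placebo pools and 3 below. Their median was 0.62 in ACLT limbs (0.34 without placebo ACLT pool B) and -0.40 in control limbs. Ighv1-61 was at 1.66 and 1.13 CPM against 7.44 and 4.00 CPM, the largest difference of the higher genes with pools within 2-fold (1.95, SE 0.41). These segments are near copies of each other, so the reads of single ones are uncertain.

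**Figure D5:**
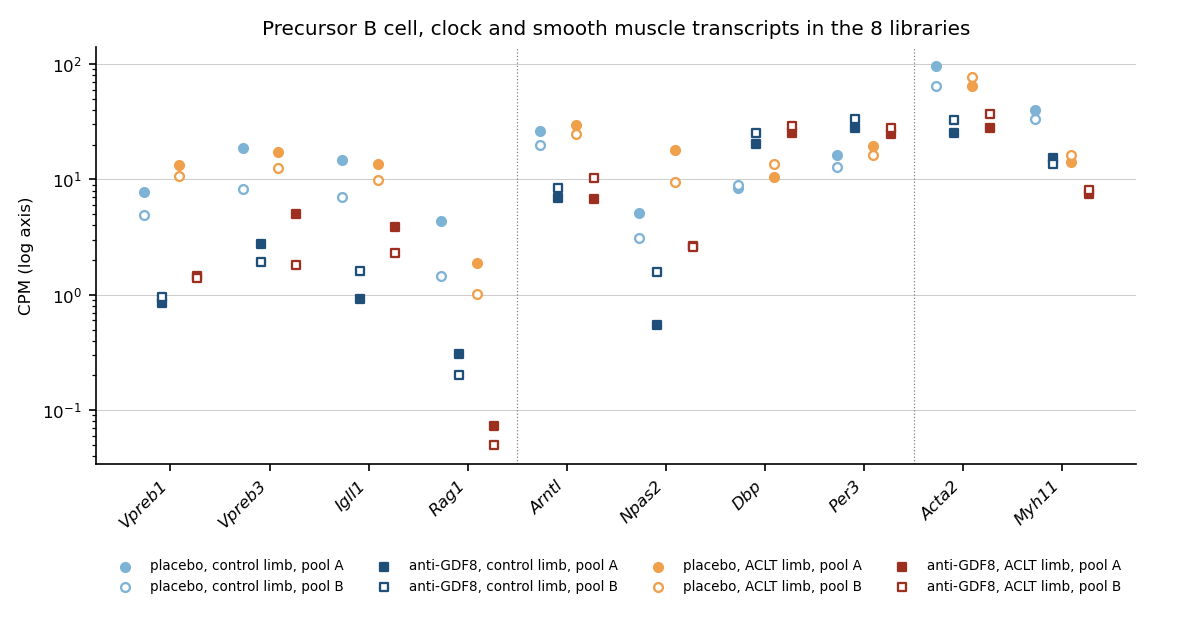
CPM on a log axis of genes of the B cell lineage, the circadian clock and smooth muscle in all 8 libraries, with circles for placebo, squares for anti-GDF8, filled symbols for pool A and open symbols for pool B. In Vpreb1, Igll1, Vpreb3, Rag1, Arntl, Npas2 and Acta2 the anti-GDF8 libraries lie below the placebo libraries of the same limb, and in Dbp and Per3 above them.

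Many of the lower genes, and few of the higher ones, had the same direction in control limbs. Of the 469 genes lower by at least 2-fold without overlap and with 5 CPM or more, 325 (69.3%) were lower in control limbs as well, with a median of -0.20 there, beside 36.9% of all tested genes. Of the 244 such higher genes, 52 (21.3%) were higher in control limbs, with a median of -0.61, beside 63.1% of all genes. The 2 sets are unlike, since 388 of the lower genes but only 48 of the higher ones had both pools of each ACLT group within 2-fold. The limbs come from the same mice, so the second comparison is not a separate sample of animals. Acta2, smooth muscle actin of vessels and myofibroblasts, is one gene with the same order in both limbs, at 64.1 and 76.5 CPM against 27.7 and 37.1 CPM in ACLT limbs and 96.3 and 64.7 CPM against 25.4 and 32.5 CPM in control limbs. Its differences were -1.13 (SE 0.24) and -1.46. By contrast Postn was 44 and 20.2 CPM against 24.3 and 46 CPM in control limbs, where the groups overlapped, and Mmp14 67 and 85.2 CPM against 63.4 and 96.2 CPM. Other matrix and protease genes were lower there without overlap. Mmp2 was 76.9 and 73.7 CPM against 29.7 and 67.4 CPM (-0.75), and Eln 12.8 and 12.9 CPM against 8.09 and 8.78 CPM (-0.60).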

How the data were processed

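RNA-seq of mouse cartilage was read from a deposited table of CPM for 20539 genes in 8 libraries, which the authors scaled to sum to 1000000 per library. The submitters' processing notes name STAR 2.7.3a, DESeq2 and Partek, and both mm10 and mm39 as builds, and only 2.23% of matched genes have the start given in GENCODE M21 of GRCm38, so no gene coordinates of the table are printed and promoters are RefSeq GRCm38.p6. Whole multiples of 1 read (tolerance 0.02) made up 69.7% to 75.5% of the values below 200 reads, too few to recover counts, so count tests were not run. From the deposited CPM, log2 of the value at the median depth of 20.1 M reads plus 1 read was fitted with limma 3.58.1 in R 4.3.3, with 4 group means over all 8 libraries, an intensity trend and Benjamini-Hochberg adjustment, after removing genes with a mean under 10 reads. Fold differences understate those of low genes. Pools with the same letter were not treated as pairs. Alternatives changed the pseudocount, filter, scaling, variance model, samples, block and covariate. Read depth was taken from the CPM worth of 1 read. The script was tested on simulated data.

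Candidates for naming were, per list, the 4 genes with the smallest p and the 2 with the highest CPM. Added to them were the 6 genes of at least 5 CPM with the smallest p in each direction. So were the 15 lower and 15 higher genes by size, of at least 5 CPM with no overlap and pools within 2-fold. Only part of these candidates is described, and no rule fixed which. A few other genes are described beside them after their values were seen. The members and lists were chosen with earlier results of these data known.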

Additional observations from a re-analysis of the deposited data

Results flagged for a closer look

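In 7 gene lists the summed share of CPM was higher in both anti-GDF8 pools of one limb than in both placebo pools and lower in both of the other limb, and these differences between limbs were not tested as sums. Muscle fiber genes went from 0.0708% and 0.0387% to 0.266% and 4.09% in ACLT limbs and from 3.63% and 8.59% to 2.07% and 3.51% in control limbs, with a median difference between limbs of 4.78 on the log2 scale. Macrophage genes went from 0.678% and 0.627% to 0.390% and 0.337% in ACLT limbs and from 0.247% and 0.214% to 0.262% and 0.272% in control limbs (median -0.62). Hypertrophic chondrocyte genes went from 0.473% and 0.363% to 0.232% and 0.140% in ACLT limbs and from 0.153% and 0.151% to 0.160% and 0.201% in control limbs (median -0.65). Spp1 is in both this list and the macrophage list, at 975 and 819 CPM with placebo and 1108 and 1185 CPM with anti-GDF8 in control limbs. The order of the hypertrophic sums in control limbs rests on Spp1, and the median over the genes of that list was -0.08 there. Myofiber atrophy genes gave a median of 0.96, glycolysis genes outside muscle 0.56, and glycosaminoglycan enzymes -0.44. Immunoglobulin variable segments, near copies of each other that were grouped after their values were seen, went from 0.152% and 0.113% to 0.216% and 0.169% in ACLT limbs and from 0.253% and 0.212% to 0.198% and 0.152% in control limbs (median 1.01). With all 8 libraries, 0 genes passed the test of the difference between limbs.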

How the results depend on the processing

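Of 23 alternatives, 20 gave 0 genes past the adjusted p in ACLT limbs. Leaving out 1 library at a time gave 0 to 462 genes in ACLT limbs, the highest count without anti-GDF8 ACLT pool A, where that group holds 1 pool assumed to vary like the others. Such settings gave 0 to 1 genes in control limbs and 0 to 305 for the difference between limbs. They gave 1031 to 2504 lower and 418 to 1045 higher genes at an unadjusted p under 0.05, and 1073 to 1631 lower and 457 to 890 higher genes by the 2-fold rule. Deviations of same-lettered pools correlated across genes with r = 0.0032 between the ACLT pools of the antibody groups, and between ACLT and control pools with r = 0.041 for placebo and r = 0.30 for anti-GDF8. The sources do not say which mice went into which pool, so the letters were not taken as pairs. With a replicate block by pool letter 1 gene passed in ACLT limbs and 1 for the difference between limbs, and by title number 0 in ACLT limbs. Trimmed mean rescaling gave 1910 higher and 1327 lower genes at an unadjusted p under 0.05 and 685 lower genes by the 2-fold rule, and lowered the share of genes below 0 from 61.2% to 46.4%. Quantile normalization gave 711 lower genes by that rule, no filter 1649, and a mean of at least 100 reads 369 lower and 248 higher. The muscle fiber covariate gave 1281 lower genes at an unadjusted p under 0.05 and 1 gene past the adjusted p in control limbs.

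With the muscle fiber covariate the log2 difference changed sign for Fbxo32 (-0.65), Mmp9 (-0.13), Ms4a1 (0.39), Mstn (-2.81), Timp3 (0.092) and Vwf (-0.26). It did so with trimmed mean rescaling for Csf1r (0.0035) and Timp3 (0.055), and with quantile normalization for Mmp9 (-0.10). Leaving out 1 library gave Mmp9 -0.17 (placebo ACLT pool B) to 0.23, and Mstn -1.46 to 2.50 and Vwf -0.086 to 0.48, both lowest without anti-GDF8 ACLT pool B. The cause was not tested. The median kept its sign under every alternative in 45 of 65 lists. Among lists named in the text or captions, the sign changed in the B cell, leukocyte metalloproteinase, inflammatory, MHC class II, interferon and respiratory chain lists. It also changed in the mitochondrially encoded, adipocyte, clock, glycolysis and ribosomal lists. Depth of 16.4 to 28.1 M reads limits what can be said of genes near 1 CPM, and 2 pools a group limit the rest.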

Other observations

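Several genes of the circadian clock, the transcription loop that keeps daily time in most tissues, did not overlap between the antibody groups in either limb, though none passed the adjusted p. They were grouped after their values were seen, and the time of day at which tissue was collected is not given in the sources used here. Arntl, an activator of the loop, was at 29.7 and 24.9 CPM against 6.76 and 10.3 CPM in the placebo and anti-GDF8 ACLT pools, a difference of -1.69 (SE 0.27, adjusted p = 0.120 with limma), and at 26.4 and 19.7 CPM against 6.93 and 8.43 CPM in control limbs (-1.57). Npas2, a partner of Arntl, was at 17.8 and 9.49 CPM against 2.64 and 2.61 CPM (-2.29, SE 0.53) and at 5.07 and 3.1 CPM against 0.547 and 1.56 CPM (-2.03). Both activators were lower in every anti-GDF8 library than in the placebo libraries of the same limb. Dbp, an output gene of the loop, was higher, at 10.4 and 13.6 CPM against 25.1 and 29 CPM (1.17, SE 0.21) in ACLT limbs and 8.44 and 8.93 CPM against 20.2 and 25 CPM (1.37) in control limbs. The repressors had the direction of Dbp, Per3 at 19.6 and 16.1 CPM against 24.7 and 27.7 CPM (0.55, SE 0.20) and Per2 at 8.38 and 13.8 CPM against 19.2 and 18 CPM (0.79, SE 0.25), with 1.08 and 0.60 in control limbs. Of the 19 clock genes tested, 4 were lower and 8 higher without overlap in ACLT limbs, where 35.6% of all tested genes were lower and 16.3% higher, and their median was 0.29 in ACLT limbs and 0.04 in control limbs.

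Myh11, smooth muscle myosin, was at 14.2 and 16.3 CPM against 7.41 and 8.08 CPM in ACLT limbs (-0.97, SE 0.20) and 40.3 and 33.1 CPM against 15.3 and 13.6 CPM in control limbs (-1.34). The smooth muscle and pericyte list had a median of -0.81 in ACLT limbs and -0.17 in control limbs, where Rgs5 differed by 0.15. Jun, an immediate early gene, was at 57.8 and 47.6 CPM against 29.8 and 29.8 CPM in ACLT limbs (-0.82, SE 0.22) and 43.6 and 58.3 CPM against 20.7 and 30.2 CPM in control limbs (-1.01). The 9 precursor B cell genes, also grouped after their values were seen, had a median of -1.94 in ACLT limbs and -2.40 in control limbs, and in ACLT limbs -1.07 with a mean of at least 100 reads, which tests fewer of them, and -0.65 with the muscle fiber covariate. Adipocyte genes had 5 of 12 higher and 1 lower without overlap, beside 16.3% and 35.6% of all tested genes. Their median was 0.04 in pool A and 0.77 in pool B. Cytosolic ribosomal protein genes had a median of -0.14, which was 0.01 after trimmed mean rescaling.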
